A study of Mus musculus with 12 samples.

Results

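Heat shock chaperones were examined in splenic and renal PD-1+CD44+CD8+ T cells. The cells came from NZB/W F1 mice, a lupus strain in which nephritis arises spontaneously. The members were 10 genes taken by symbol, out of 18992 gene identifiers in the deposited tables, and all 10 had transcripts in each of the 3 libraries. They were *Hspa1a* and *Hspa1b* (inducible HSP70), *Hspa8* (constitutive HSP70), *Dnajb1* and *Dnaja1* (HSP40), *Hsph1* (HSP110), *Hsp90aa1* and *Hsp90ab1* (HSP90), and *Hspd1* and *Hspe1* (mitochondrial HSP60 and HSP10). The cells had been sorted from the spleen at 12 weeks of age (12W spleen), the spleen at 28 weeks (28W spleen) and the kidney at 28 weeks (28W kidney), with no treatment named for any group. The mice of the study were female, and the number of animals behind a library is not stated. Transcripts were read with 10x Genomics 5′ v2 chemistry, in which a unique molecular identifier (UMI) marks each captured molecule.

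The labels list 4 samples per group, and the deposited tables pool them, so each group was 1 library without a replicate. No p-value is given for that reason, and every interval is a 95% interval for counting error only. The libraries held 6894, 6481 and 7135 cells in 10, 11 and 12 deposited clusters, with 34742303, 32023473 and 29937384 UMIs and a median of 3853, 4128 and 3501 UMIs per cell (12W spleen, 28W spleen, 28W kidney). Levels are UMIs per 1000000 UMIs of a cluster or library (CPM), and 3 UMIs, the most that a count of 0 allows, equal 0.0864, 0.0937 and 0.1002 CPM of these libraries. The clusters were made separately in each library, so cluster 2 of one library has no tie to cluster 2 of another. Libraries shared 52 to 66 cell barcodes, at most 1.02% of a library. Summed CD8 T cell markers stood at 4943, 4657 and 5997 CPM. Some clusters carried markers of other cells. These were cluster 3 of 12W spleen (erythroid, neutrophil and B cell), clusters 8 (erythroid, neutrophil, myeloid and B cell) and 10 (B cell and myeloid) of 28W spleen, and 5 clusters of 28W kidney. In kidney they were cluster 2 (erythroid, B cell and tubule), 7 (tubule and B cell), 8 (B cell), 11 (erythroid) and 12 (B cell, neutrophil and myeloid). Clusters 8 of 12W spleen, 11 of 28W spleen and 2 of 28W kidney drew 8.98%, 6.64% and 10.8% of their UMIs from mitochondrial genes.

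Chaperones bind unfolded stretches of other proteins and help them to fold, to assemble or to be degraded. HSP70 proteins work in cycles of ATP hydrolysis that HSP40 proteins start and HSP110 proteins reset by nucleotide exchange, and HSP90 receives clients that are close to their native fold. HSP60 and its lid HSP10 form a folding chamber inside mitochondria. Heat shock factor 1 raises many of these genes when proteins unfold, for instance during heat, oxidants or tissue handling, by binding inverted repeats of GAA in their promoters. In T cells, activation and growth also call for chaperones, since large amounts of new protein have to be folded.

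*Hspa1a* (ENSMUSG00000091971) lies at chr17:34969190-34972156 and *Hspa1b* (ENSMUSG00000090877) at chr17:34956436-34959238 (GRCm38, both on the minus strand), with 12918 bases between their starts. The 150 bases before each start are printed because the results turn on this pair and because the promoters are nearly the same. The capitals mark the GAA and TTC of the heat shock element, 104 bases before the start.
Hspa1a, chr17:34972157-34972306, minus strand: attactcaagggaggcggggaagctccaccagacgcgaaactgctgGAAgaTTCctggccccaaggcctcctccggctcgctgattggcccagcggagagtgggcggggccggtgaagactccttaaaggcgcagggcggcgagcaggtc
Hspa1b, chr17:34959239-34959388, minus strand: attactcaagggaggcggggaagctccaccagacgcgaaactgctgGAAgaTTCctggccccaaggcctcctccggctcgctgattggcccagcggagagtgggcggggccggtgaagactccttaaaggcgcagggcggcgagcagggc

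Both stretches come from RefSeq (GRCm38.p6) and differed at 1 of 150 bases. Over the full 250 bases upstream, 98.8% of positions were identical. The transcripts are close as well, since 50.9% of all 90-base windows of *Hspa1a* and 52.3% of those of *Hspa1b* occurred in another gene, in each case the partner or *Hspa1l*. Among the first 500 windows, nearest the 5′ end, 58.6% were shared in each. Reads from such windows cannot be placed, so the split of UMIs between the pair is uncertain and the sum is the safer value. The gene *Gm20481*, looked up as a possible antisense gene of *Hspa1a*, had 1, 1 and 95 UMIs (12W spleen, 28W spleen, 28W kidney). Its position and strand were not examined here.

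The element was searched as GAANNTTC or TTCNNGAA, each of which reads the same on both strands, in windows from 250 bases before to 50 bases after each start. Of the 10 members, 7 had a promoter entry and 6 of these held a match. By promoter, 7 of 12 of the members' entries held one, beside 15.1% of all 32851 promoters. An array of 3 alternating units was found for *Hspd1*, *Hspe1* and *Hsph1*, against 0.603% of all promoters. No match was found for *Dnajb1*, which says only that these letters are not in its windows. The 30 bases around the elements of 3 members are shown, with 3 overlapping matches for *Hspe1* and 1 match each for *Dnaja1* and *Hsph1*.
Hspe1, chr1:55088053-55088082, plus strand: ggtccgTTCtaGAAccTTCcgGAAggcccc
Dnaja1, chr4:40722333-40722362, plus strand: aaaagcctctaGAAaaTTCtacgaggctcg
Hsph1, chr5:149636351-149636380, minus strand: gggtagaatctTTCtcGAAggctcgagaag

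*Hspe1* (chr1:55088132-55091307, plus strand) and *Hspd1* (chr1:55077835-55088243, minus strand) stand head to head and overlap by 112 bases, and the array printed for *Hspe1* is also the one in the second *Hspd1* window. The stretch of *Hsph1* (chr5:149614287-149636376, minus strand) shows 1 match, and its 3-unit array lies after the start. *Dnaja1* (chr4:40722150-40737149, plus strand) had a single match. The other members are at chr8:83608193-83612653 (*Dnajb1*, plus), chr9:40800984-40810087 (*Hspa8*, plus), chr12:110690605-110702728 (*Hsp90aa1*, minus) and chr17:45567775-45573271 (*Hsp90ab1*, minus). Pseudogenes share 90-base windows with *Hspa8* (64.7% of windows), *Hsp90aa1* (50.03%), *Hspd1* (29.4%), *Hspe1* (21.6%) and *Dnaja1* (15.5%). No window was shared by *Dnajb1*, *Hsph1* or *Hsp90ab1*. Among the first 500 windows, nearest the 5′ end, the shares were 8% (*Hspa8*), 43.6% (*Hsp90aa1*), 3% (*Hspd1*), 29.6% (*Hspe1*) and 37% (*Dnaja1*).

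The inducible HSP70 genes separated the 3 libraries most among the members. *Hspa1a* had a level of 2.65 CPM (92 UMIs, interval 2.13 to 3.25) in spleen at 12W. It reached 24.9 CPM (798 UMIs, 23.2 to 26.7) in spleen at 28W and 670 CPM (20062 UMIs, 661 to 679) in kidney. *Hspa1b* stood at 3.83, 28.4 and 320 CPM (133, 909 and 9573 UMIs). From 12W to 28W spleen the fold was 9.41 (7.58 to 11.8) for *Hspa1a* and 7.41 (6.18 to 8.96) for *Hspa1b*. From 28W spleen to 28W kidney it was 26.9 (25.1 to 28.9) and 11.3 (10.5 to 12.1). A library level sums all cells, so the mix of clusters and the level within each cannot be told apart in it, and the cluster values follow.

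In 12W spleen, *Hspa1a* ranged over the clusters from 0.54 CPM (cluster 6, 1 UMI, interval 0.01 to 2.99) through a median of 1.89 to 9.55 CPM. The highest was cluster 2 (37 UMIs, interval 6.72 to 13.2), whose leading genes include the chemokine *Ccl5* and granzyme *Gzmk*. That cluster held 40.2% of the *Hspa1a* UMIs of the library. In 28W spleen the range was 4.78 CPM (cluster 7, led by *Dapl1*), 29.8 and 46.6 CPM (cluster 4, led by interferon-stimulated genes such as *Ifit3*). Only clusters 3 (led by *Sox4* and *Myb*) and 7 were as low as the 12W clusters, and 9 of 11 clusters were above the highest 12W cluster. In 28W kidney the range was 90.6 CPM (cluster 8), 792 and 1164 CPM (cluster 2). Every kidney cluster was above every 28W spleen cluster, which held for 7 of 7686 genes (0.0911%) and, of the members, for *Hspa1a* alone. Between the spleens no member separated all clusters in either direction. Every 28W spleen cluster was above every 12W cluster for 0.0269% of genes.

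*Hspa1b* followed the same order. In 12W spleen it ranged from 0.83 CPM (cluster 4) through a median of 3.55 to 10.5 CPM in cluster 8, where it rested on few molecules (2.26% of its UMIs) in a cluster rich in mitochondrial transcripts. In 28W spleen it ranged from 8.10 CPM (cluster 7) through 29.8 to 49.98 CPM (cluster 4). In 28W kidney it ranged from 47.8 CPM (cluster 8) through 349 to 984 CPM (cluster 2), and 11 of 12 kidney clusters were above the highest spleen cluster. The exception, cluster 8, was led by the B cell genes *Cd79a*, *Ebf1* and *Ms4a1*, with summed B cell markers at 10411 CPM.

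*Hspa1a* gave 40.9% (34.4 to 47.6, exact binomial) of the UMIs of the pair at 12W. At 28W it gave 46.7% (44.4 to 49.1) in spleen and 67.7% (67.2 to 68.2) in kidney. In kidney the share ran from 54.2% in cluster 2 to 74.1% in cluster 4. Given the shared sequence, these shares describe how reads were assigned.

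**Figure D1:**
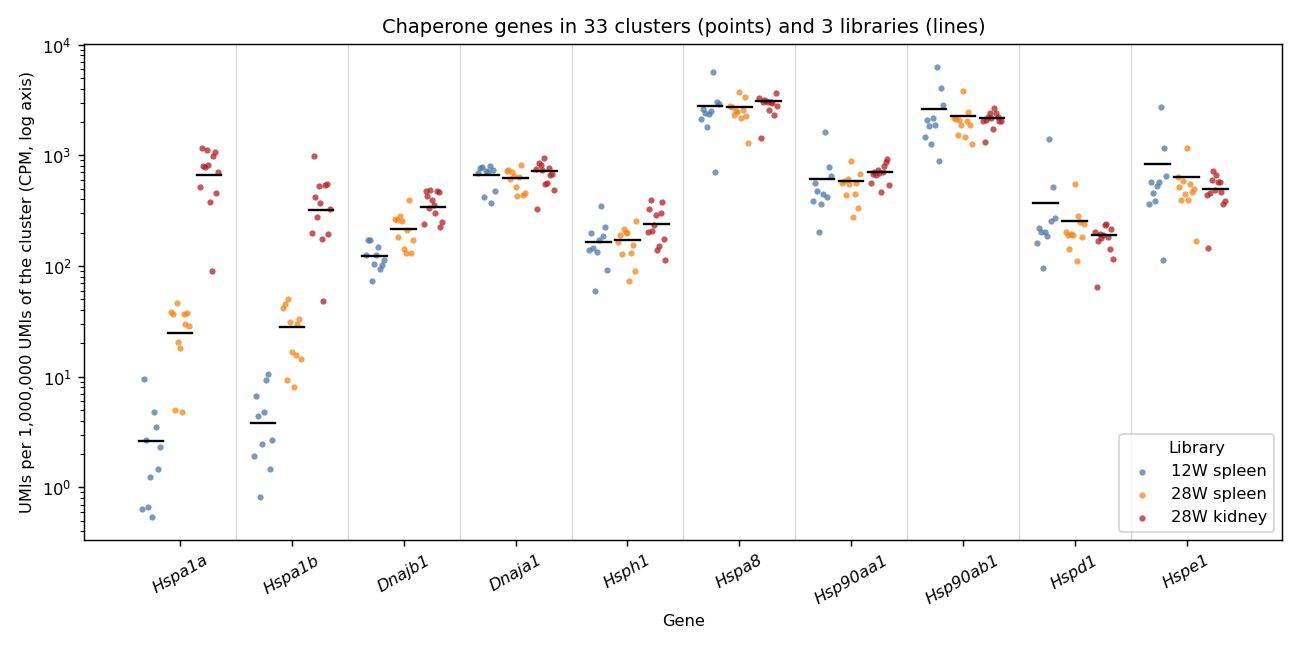
Level of each chaperone (CPM, log axis) in the 33 clusters, with 1 point per cluster, colored by library, and a black line at the level of the whole library. *Hspa1a* goes from 2.65 through 24.9 to 670 CPM over the 3 libraries, while *Hspa8* stays between 2760 and 3078 CPM.

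Across all genes at 10 CPM or more in either library, 1.79% were at least 2-fold higher and 0.901% at least 2-fold lower in 28W than in 12W spleen, on the scale of log2(CPM + 1). Among the chaperones, 2 of 10 were higher and 0 lower. *Hspa1a* (log2 ratio 2.83) ranked 20th and *Hspa1b* (2.61) 23rd of 7434 genes. The median of the 10 was -0.03, beside -0.10 over all genes, and 4 of 10 were positive, beside 33.3% of all genes. In kidney against 28W spleen, 5.31% of 7686 genes were at least 2-fold higher and 1.34% at least 2-fold lower. Again 2 of 10 chaperones were higher and 0 lower, with *Hspa1a* (4.69) 39th and *Hspa1b* (3.45) 86th. The median of the 10 was 0.24, beside 0.07 over all genes, and 7 of 10 were positive, beside 61.1% of all genes. Both comparisons use the 28W spleen library, so they are not independent. Collagenase was used on kidney tissue and is not described for spleen, so organ and preparation cannot be told apart. The paper places 12W before disease and 28W in advanced disease. Age, disease stage and library therefore cannot be told apart between the spleens, and "by age" below only names that contrast.

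**Figure D2:**
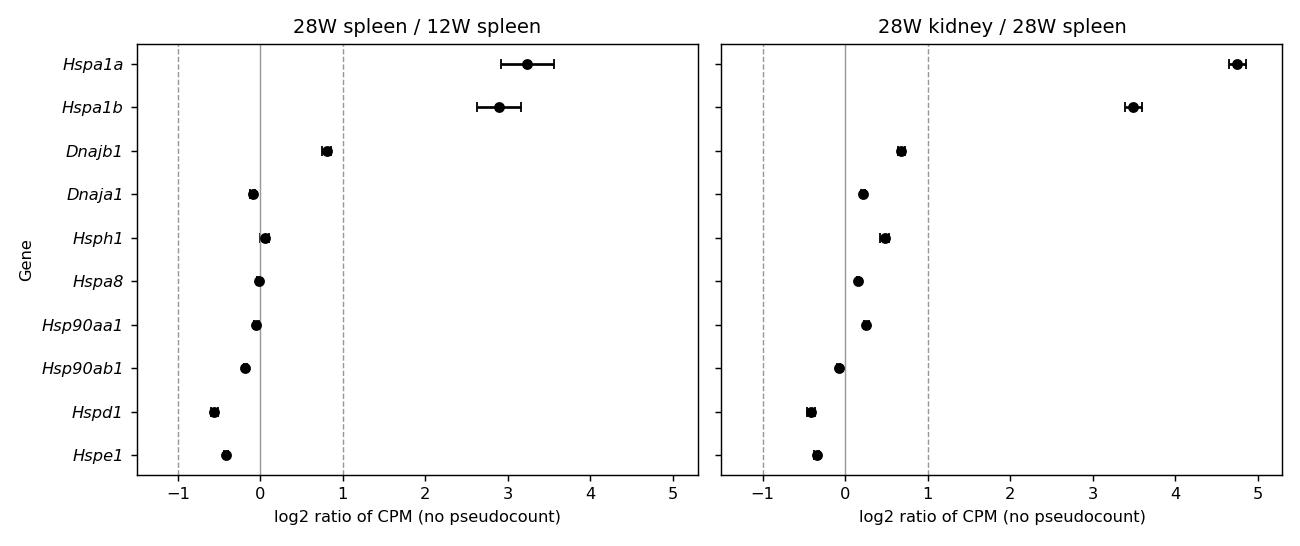
Log2 ratio of CPM, without a pseudocount, for each chaperone between the spleens (left) and between kidney and spleen at 28W (right), with 95% intervals for counting error as bars and dashed lines at 2-fold. *Hspa1a* and *Hspa1b* lie beyond 2-fold in both panels, and the other 8 genes lie within it.

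*Dnajb1*, a stress-inducible HSP40 partner of HSP70, was the only other member that was higher at both steps beyond its counting interval and by more than 1.5-fold. It stood at 123, 214 and 344 CPM, which was 1.75-fold (1.68 to 1.81) from 12W to 28W spleen and 1.60-fold (1.56 to 1.65) from spleen to kidney. Its lowest, median and highest clusters had 73.9, 119 and 172 CPM at 12W. In the 28W spleen they had 130, 214 and 391 CPM, and in kidney 225, 378 and 483 CPM. The groups overlapped, with 8 of 11 clusters of 28W spleen above the highest 12W cluster and 6 of 12 kidney clusters above the highest of 28W spleen. Its highest spleen value, 391 CPM in cluster 9, lay in a cluster led by *Ccl5* whose summed cytotoxic markers were the highest of that library (20766 CPM).

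*Dnaja1*, the other HSP40 and one with constitutive expression, stood at 662, 621 and 721 CPM, and its log2 ratios were -0.09 and 0.21. Its clusters lay between 372 and 802 CPM at 12W, between 432 and 815 CPM in the 28W spleen and between 331 and 937 CPM in kidney, and overlapped in both comparisons. *Hsph1*, which resets HSP70 after each cycle, stood at 164, 171 and 238 CPM. The spleens differed by 1.04-fold (1.001 to 1.08) and kidney was 1.39-fold higher (1.34 to 1.44). In kidney, *Hsph1* was highest in clusters 3 (395 CPM) and 10 (377 CPM) and lowest in cluster 12 (113 CPM). The sign of the spleen ratios of *Dnaja1* and *Hsph1* changed under some other settings (from -0.18 to 0.01 and from -0.07 to 0.15).

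*Hspa8*, the HSP70 that folds proteins in unstressed cells, differed little between libraries. It stood at 2801, 2760 and 3078 CPM, a log2 ratio of -0.02 by age and 0.16 by organ, in the same libraries in which its inducible paralogs differed many-fold. The sign of its age ratio depended on the setting (-0.15 to 0.11). Its lowest, median and highest clusters had 706, 2469 and 5621 CPM at 12W, 1300, 2540 and 3710 CPM in the 28W spleen, and 1433, 3032 and 3643 CPM in kidney. The lowest cluster of each library was the one richest in mitochondrial transcripts.

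The HSP90 genes also overlapped between libraries. *Hsp90aa1*, the more inducible form, stood at 607, 588 and 702 CPM, with log2 ratios of -0.05 and 0.26. *Hsp90ab1*, the constitutive form, stood at 2595, 2290 and 2165 CPM, with log2 ratios of -0.18 and -0.08. The sign was not stable for *Hsp90ab1*, whose ratios ran from -0.44 to 0.04 by age and from -0.24 to 0.20 by organ over the alternative settings. For *Hsp90aa1* the age ratio ran from -0.24 to 0.27 and the organ ratio from 0.10 to 0.38.

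The mitochondrial pair had ratios below 0 in both comparisons, with an organ ratio that turned to just above 0 without the cycling clusters. *Hspd1* stood at 374, 254 and 192 CPM and *Hspe1* at 840, 632 and 496 CPM. Their log2 ratios were -0.56 and -0.41 by age, and -0.41 and -0.35 by organ. Much of this lay in few clusters. Cluster 7 of 12W spleen held 53.6% of the *Hspd1* UMIs of its library and cluster 6 of 28W spleen 43.6%, whereas the highest kidney cluster was 1.302 times the kidney median. Leaving out the cycling cluster of each library (10, 6 and 11, also the deepest ones) moved the age ratios to -1.09 and -0.79, and over all alternatives they ran from -1.09 to -0.12 (*Hspd1*) and from -0.79 to -0.13 (*Hspe1*). Leaving out these clusters also turned the organ ratios to 0.06 for both genes.

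Within libraries, the chaperones varied most in 12W spleen. Of 8 members at 50 CPM or more there, 6 had a highest cluster at least 2-fold above the median cluster (43.5% of all such genes). In 28W spleen it was 2 of 8 (33.1%) and in kidney 1 of 10 (27.0%), namely *Hspa1b*. These shares depend on how the authors cut each library into clusters.

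In 12W spleen, 1 cluster stood apart. Cluster 7 (372 cells, 13406 UMIs per cell) was led by *Xcl1*, *Tnfrsf9* (4-1BB), *Srm* and *Odc1*, genes of T cell activation and polyamine synthesis. It had 5621 CPM of *Hspa8*, 6342 of *Hsp90ab1*, 1633 of *Hsp90aa1*, 1398 of *Hspd1*, 2742 of *Hspe1* and 346 of *Hsph1*, the highest of the library for each. *Hspd1* there was 6.57 times and *Hspe1* 4.97 times the median cluster. *Hspa1a*, at 4.81 CPM, and *Dnajb1*, at 148 CPM, were not the highest. Cluster 9, led by *Nrgn* and with *Nfkb2* and *Nme1* among its leading genes, was second for *Hspa8*, both HSP90 genes, *Hspd1*, *Hspe1* and *Hsph1*. Cluster 4, led by *H2-Oa* and *Dapl1*, was the lowest for *Dnajb1*, *Hsph1*, *Hsp90aa1* and *Hspd1*, at 73.9, 59.6, 201 and 96.2 CPM.

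In 28W spleen, the cycling cluster 6 (12209 UMIs per cell, led by *Pclaf* and *Birc5*) took that place, with 3710 CPM of *Hspa8*, 3845 of *Hsp90ab1*, 888 of *Hsp90aa1*, 551 of *Hspd1* and 1171 of *Hspe1*, each the highest of the library. Its *Hspa1a* (18.0 CPM) and *Dnajb1* (142 CPM) were below the median cluster. Cluster 7, led by *Dapl1* like cluster 4 of 12W spleen, was the lowest for *Hspa1a*, *Hspa1b*, *Dnaja1*, *Hsph1*, *Hsp90aa1* and *Hspd1*.

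In kidney, the same cluster was the highest for inducible HSP70 and the lowest for 5 other members. Cluster 2 (806 cells, 1200 UMIs per cell) had 1164 CPM of *Hspa1a*, 984 of *Hspa1b* and 474 of *Dnajb1*, but 1433 of *Hspa8*, 1322 of *Hsp90ab1*, 331 of *Dnaja1*, 147 of *Hspe1* and 64.1 of *Hspd1*, the last 5 being the lowest of the library. It was led by *Igha*, *Jchain* and mitochondrial genes, and its summed CD8 T cell markers were 2278 CPM. The part of RNA quality or of other cells in its values was not tested. High *Hspa1a* was not limited to it, since clusters 5 (led by *Il7r*, 1121 CPM), 10 (1080 CPM) and 9 (981 CPM) had 5423 to 6095 CPM of CD8 T cell markers and 0.678% to 1.496% of mitochondrial transcripts. Without all clusters rich in mitochondrial transcripts or in markers of other cells (5 of 12 in kidney, 3 of 11 in 28W spleen), *Hspa1a* was 793 CPM in kidney and 24.5 CPM in spleen, a log2 ratio of 4.96.

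**Figure D3:**
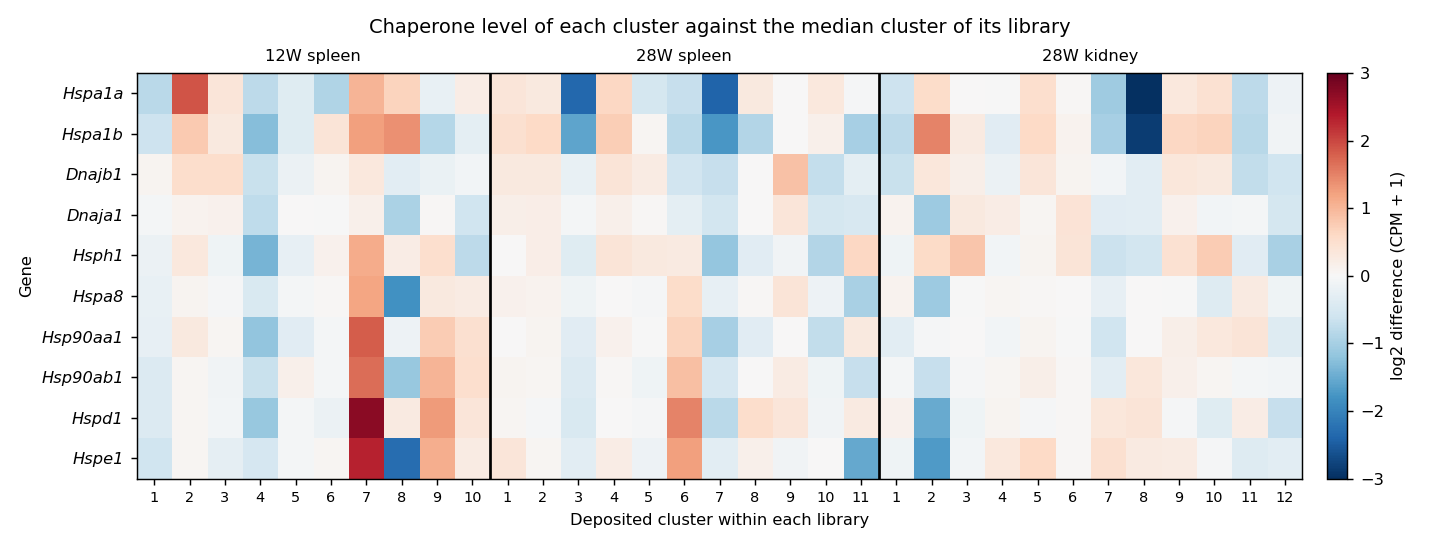
Log2 difference of CPM + 1 between each cluster and the median cluster of its library, for the 10 chaperones (rows) and 33 clusters (columns), with colors ending at a difference of 3 in either direction. Cluster 7 of 12W spleen and cluster 6 of 28W spleen are red for *Hspa8*, HSP90, *Hspd1* and *Hspe1*, and cluster 8 of kidney is the darkest blue for *Hspa1a* and *Hspa1b*.

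Some clusters of different libraries were led by genes of the same marker list, and their values can be set side by side. These pairs were chosen after their leading genes were seen. In the cycling clusters *Hspa1a* was 2.32 CPM at 12W and 18.0 CPM at 28W in spleen, and 459 CPM in kidney, which was 7.74-fold (3.64 to 19.7) by age and 25.5-fold (21.1 to 31.0) by organ. In the interferon clusters it was 46.6 CPM in 28W spleen and 817 in kidney, 17.5-fold (14.9 to 20.7). In the clusters led by B cell genes (10 of 28W spleen and 8 of kidney) it was 37.6 and 90.6 CPM, 2.41-fold (1.61 to 3.76). The interval of *Hspa1b* there, 1.44-fold (0.92 to 2.35), included no difference. Kidney cluster 12 was left out of this pair for its neutrophil markers (18216 CPM). It had the highest B cell markers of the kidney library (24866 CPM) and 713 CPM of *Hspa1a*. Other members took another course in the cycling clusters. *Hspe1* was 651, 1171 and 363 CPM and *Hspd1* 272, 551 and 215 CPM, so both were higher in 28W than in 12W spleen (1.80-fold and 2.03-fold) and lower in kidney than in 28W spleen (0.31-fold, 0.29 to 0.33, and 0.39-fold, 0.36 to 0.42). *Hsp90ab1* was 0.53-fold (0.52 to 0.55) in kidney, while *Hspa8* was 0.98-fold (0.962 to 1.002). In the interferon clusters *Hspd1* (0.96-fold, 0.85 to 1.09) and *Hsp90ab1* (1.04-fold, 1.003 to 1.08) were close to equal, and *Hspe1* was lower in kidney (0.84-fold, 0.78 to 0.91).

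The course of the members over the 33 clusters was compared on log2(CPM + 1) with the mean of each library removed. These correlations are descriptions without a p, since clusters of a library share its cells, depth and total. *Hspa1a* and *Hspa1b* were alike (Pearson 0.84), and the part of their shared sequence in this was not tested. *Hspa8*, *Hsp90ab1* and *Hspe1* formed a block (0.88 for *Hspa8* with *Hsp90ab1*, 0.90 with *Hspe1*, and 0.91 for *Hsp90ab1* with *Hspe1*), which *Hspd1* joined (0.79 with *Hsp90ab1*, and 0.69 with *Hspe1*, or 0.90 without the 3 clusters rich in mitochondrial transcripts). *Hspa1a* had correlations of 0.00 with *Hspa8* and 0.03 with *Hspe1*, or 0.27 and 0.26 without those 3 clusters. Over all 33 clusters the other members stood between. *Hsp90aa1* was near *Hspd1* (0.77), *Hsph1* (0.74) and *Hsp90ab1* (0.73). *Dnaja1* was nearest to *Hspa8* (0.65), and *Dnajb1* was about as near to *Hspa1b* (0.59) as to *Hsph1* (0.57) and *Dnaja1* (0.52). Without those 3 clusters the places of *Hsp90aa1* and *Dnaja1* changed. *Hsp90aa1* then lay with the block, at 0.88 with *Hsp90ab1*, 0.85 with *Hspa8*, 0.83 with *Hspd1* and 0.75 with *Hspe1*. *Dnaja1* was then nearest to *Hsph1* (0.78) and *Dnajb1* (0.71), with 0.38 for *Hspa8*.

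**Figure D4:**
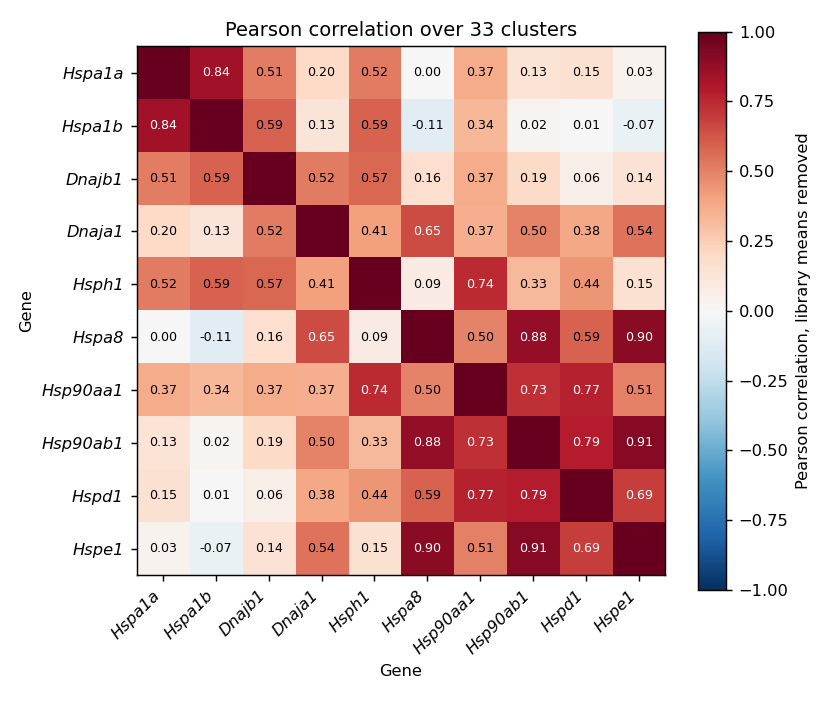
Pearson correlation between each pair of chaperones over 33 clusters, on log2(CPM + 1) with library means removed, with red for positive and blue for negative values. The lower right holds *Hspa8*, HSP90, *Hspd1* and *Hspe1* at 0.50 to 0.91, and *Hspa1a* with *Hspa8* is at 0.00.

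The block tracked a list of growth genes (*Ncl*, *Npm1*, *Srm*, *Odc1*, *Nme1*, *Myc*, *Ran*, *Eif5a* and *Mif*), with 0.79 for *Hspa8*, 0.88 for *Hsp90ab1*, 0.85 for *Hspd1* and 0.84 for *Hspe1*, against -0.14 for *Hspa1a*. The inducible pair differed by library. With this list *Hspa1a* had 0.18 (12W spleen), 0.03 (28W spleen) and -0.72 (kidney), and *Hspa1b* had 0.06, -0.08 and -0.83. Kidney cluster 8, which carried B cell markers, was lowest for the pair and highest for *Ncl*, *Npm1*, *Srm*, *Odc1* and *Myc*. Of the rest of the list, *Ran* and *Eif5a* were highest in cluster 11 and *Nme1* and *Mif* in cluster 7. The part of such clusters in the kidney values was not tested. Against the log2 UMIs per cell the values were 0.69 for *Hspa8*, 0.57 for *Hsp90ab1*, 0.61 for *Hspe1* and 0.32 for *Hspd1*. Against the log2 share of mitochondrial transcripts they were -0.81, -0.60, -0.67 and -0.29 in the same order. *Dnaja1* had 0.66 with the summed cytotoxic genes (0.34 and 0.81 within the 12W and 28W spleens, 0.89 within kidney). *Dnajb1* had 0.57, which came from the spleens (0.62 and 0.91) and not from kidney (-0.0088). Within kidney, the inducible pair and *Hspd1* ran against each other (-0.55 for *Hspa1a* and -0.70 for *Hspa1b* over 12 clusters). Without clusters 2 and 8, the ends of the *Hspa1a* range, the values were -0.54 and -0.56. In the spleens the sign was positive, with 0.46 at 12W and 0.42 at 28W for *Hspa1a*, and 0.48 and 0.13 for *Hspa1b*. The 12W values of this pair, here and with the growth list, rest on few molecules. That library held 92 UMIs of *Hspa1a* and 133 of *Hspa1b* in all.

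**Figure D5:**
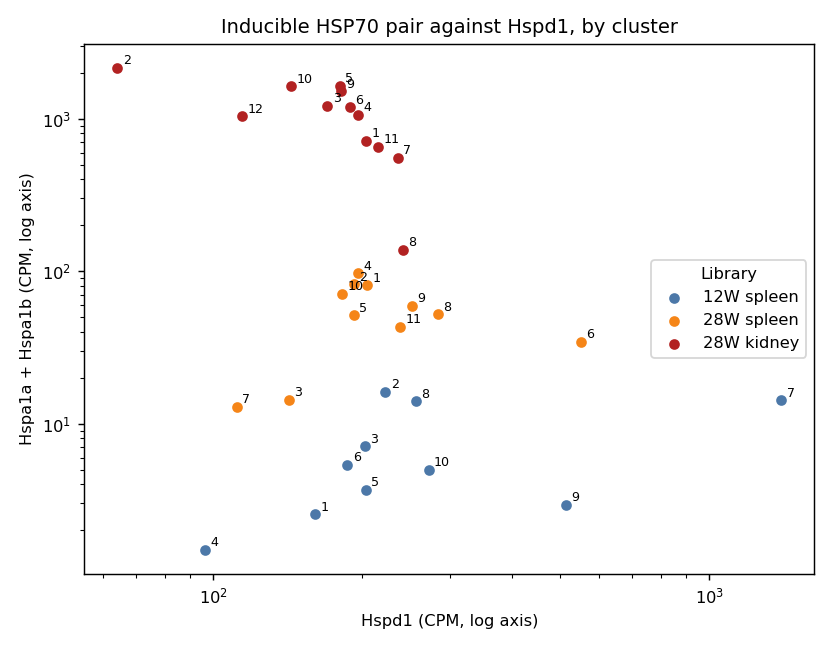
Summed CPM of *Hspa1a* and *Hspa1b* against CPM of *Hspd1* (both log axes) in the 33 clusters, numbered as deposited and colored by library. The kidney clusters run from cluster 2 at the upper left to cluster 8 at the lower right, and the 12W spleen cluster 7 lies far right at 1398 CPM of *Hspd1*.

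The nearest genes were sought among 2255 genes at 50 CPM or more. For *Hspa8* they were *Eif4e*, which binds the mRNA cap (0.96), the chaperonin subunit *Cct7* (0.96), the proteasome receptor *Adrm1*, the splicing factor *Sf3b4* and *Nudc*. For *Hsp90ab1* they were *Cct7* (0.94), *Fbl* (fibrillarin), *Ppa1*, *Nhp2* and *Nudc*, and for *Hspd1* they were *Phb* (prohibitin, 0.92), *Cct3*, *Nop58*, *Rsl1d1* and *Tcp1*. The inducible pair, which rested on 225 UMIs in all at 12W, had no gene as near among those searched. *Bag3* and *Hspb1*, below 50 CPM in the spleens, were not searched. *BC018473* (0.64), *Cd82*, *Rsrp1*, *Stub1* (a ubiquitin ligase that binds HSP70) and the chemokine receptor *Cxcr3* (0.51) came first.

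Over all genes, 1.79% were at least 2-fold higher by age and 5.31% by organ, and 0.901% and 1.34% at least 2-fold lower. Of the other genes of the HSP70 system, 0 of 18 were past 2-fold by age (15 negative, or 9 when scaled by the median gene ratio) and 1 of 18 by organ. That gene was *Bag3*, which links HSP70 to autophagy, with 6.74, 12.8 and 55.2 CPM and an organ log2 ratio of 2.03. In kidney it was highest in cluster 2 (86.8 CPM) and lowest in cluster 8 (24.3 CPM), as the inducible pair was. A list of 6 genes for small heat shock proteins also held *Hspb11* and *Serpinh1*, which are not of that family. By organ 2 of the 6 were at 10 CPM or more, and by age 1 (*Hspb11*). *Hspb1* (HSP27) stood at 1.21, 0.72 and 39.9 CPM, an organ log2 ratio of 4.57. *Hspb11* had log2 ratios of -0.61 by age and -0.64 by organ. The kidney clusters of *Hspb1* ran from 9.04 CPM (cluster 11) to 216 CPM (cluster 12, with myeloid and neutrophil markers), and without the clusters with markers of other cells or many mitochondrial transcripts the ratio was 4.56. None of 13 HSP90 cochaperones and none of 2 genes of the heat shock factor list at that level was past 2-fold in either comparison. *Hsf1*, which encodes the main heat shock factor, stood at 47.2, 43.2 and 38.5 CPM.

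The cytosolic chaperonin and prefoldin genes, which fold actin and tubulin, had negative age ratios in 11 of 12 cases (9 when scaled by the median gene ratio), with a median of -0.35 and none past 2-fold. These sign counts stand beside 33.3% of all genes that were positive by age and 61.1% by organ. Mitochondrial import and quality control genes had negative age ratios in 8 of 8 cases (median -0.43, none past 2-fold), as *Hspd1* and *Hspe1* were. Growth genes were negative by age in 9 of 9 cases (median -0.56, none past 2-fold). By organ, 8 of 9 growth genes were negative (median -0.43), *Srm* being past 2-fold (-1.32) and *Odc1* in the other direction (1.25, with 44.8% of its kidney UMIs in cluster 8, and 0.30 without the clusters with markers of other cells). Endoplasmic reticulum chaperones and unfolded protein response genes had positive organ ratios in 15 of 16 cases with a median of 0.57. Only *Xbp1*, 1 of 16, was past 2-fold (1.05), beside 5.31% of all genes at least 2-fold higher. Without the clusters with markers of other cells or many mitochondrial transcripts this median was 0.21 and *Xbp1* 0.33, and its highest kidney level was in cluster 7 (322 CPM), which carried tubule markers and *Ighg2b*. The age medians of the endoplasmic reticulum genes (-0.03) and the organ median of the other HSP70 genes (0.08) changed sign with the scaling.

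Immediate early genes, which respond to tissue handling as well as to T cell receptor signals, moved the same way as inducible HSP70 by age and were mixed by organ. By age, 6 of 11 were past 2-fold higher, with 9 of 11 positive and a median of 1.18, led by *Fosb* (1.93), *Fos* (1.89) and *Dusp1* (1.58), and *Nr4a1* was lower (-1.42). By organ, *Atf3* (3.56) and *Nr4a1* (1.82) were higher and *Fos* lower (-1.23). Of their kidney UMIs, 73.0% of *Atf3* and 76.8% of *Nr4a1* lay in cluster 8, in which *Hspa1a* was lowest. Without the clusters with markers of other cells or many mitochondrial transcripts the organ ratios were 1.16 for *Atf3*, -0.61 for *Nr4a1* and -1.68 for *Fos*, and the median of the 12 genes went from -0.05 to -0.83. The part of tissue handling in the *Hspa1a* difference was not tested.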

How the data were processed

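Single-cell transcripts of 3 groups (4 labelled samples each, 12 in all) were analysed as 3 pooled libraries. Groups follow the sample titles, with which 1 age entry (12 weeks for the later spleens) conflicts. The authors deposited, per library, the cluster of each cell barcode and a normalized signal (UMIs averaged by gene over the cells of a cluster). Log2 fold changes and adjusted p-values in the same tables hold the comparisons of the study and were not used. The submitters' processing notes name Cell Ranger 2.1.1, R 3.6.1 and GRCm38. The annotation release and cell filters are not given in the sources used here, nor is whether counting used strand. The treatment of doublets is not given either, and no doublet caller could be run on cluster means, so clusters with markers of several cell types may hold doublets.

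In each column values were whole multiples of the smallest one (100% within 0.001 of a whole number), which returned UMIs per gene and cluster. UMIs were summed over clusters and scaled to 1000000 (CPM). The 3 tables had been normalized separately, so levels across libraries rest on this scaling. Log2 ratios used a pseudocount of 1 CPM, which understates changes of genes with few UMIs, and a gene counted as changed at 2-fold among genes at 10 CPM or more in either library. Intervals were exact (Poisson for levels, conditional binomial for ratios, 95%). With 1 library per group no test was run. The recovery of known folds was tested on simulated data.

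The 10 members, the pathway and marker lists, and the rule for named genes were chosen with earlier results of these data known. Members were named throughout, pathway genes when past 2-fold (at most 3 per direction), and the 5 genes nearest to *Hspa1a* with *Hspa1b*, *Hspa8*, *Hsp90ab1* and *Hspd1*. *Hsf1*, *Igha* and other leading genes of clusters were named after their values were seen. Gene positions come from GENCODE (GRCm38) and promoters from RefSeq (GRCm38.p6). Python 3.11.15 with numpy 2.4.6, pandas 2.3.3, scipy 1.17.1 and matplotlib 3.10.9 was used. Clonotypes were not used here.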

Additional observations from a re-analysis of the deposited data

How the results depend on the processing

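*Hspa1a* and *Hspa1b* were past 2-fold in both comparisons under all 11 alternatives, with log2 ratios of 1.47 to 3.41 and 1.47 to 2.86 by age and 4.28 to 4.96 and 3.10 to 3.66 by organ, the lowest at a pseudocount of 10 CPM. The count of chaperones at least 2-fold higher was 2 in each. The count at least 2-fold lower was 0, except 1 by age (*Hspd1*) without the deepest cluster of each library, which was also the proliferation cluster. The median log2 ratio of the 10 genes by age (-0.03) moved to 0.065 when scaled by the median gene ratio, -0.0047 with totals without receptor, mitochondrial and ribosomal genes, 0.11 with deposited means averaged over cells, 0.049 as the median over clusters and -0.11 without the deepest cluster, so its sign depends on the setting. The median by organ (0.24) moved to 0.17 with the median gene ratio, to 0.078 with the reduced totals and to 0.29 as the median over clusters, to 0.31 without the deepest cluster, to 0.28 without clusters with markers of other cells, to 0.27 without these and those rich in mitochondrial transcripts, and to 0.21 with *Hspa1a* and *Hspa1b* summed. The cause was not tested. The last 2 were added after the data were seen, as was the setting under which *Nr4a1* by organ reversed (1.82 to -0.61). The median gene ratio was -0.10 by age and 0.06 by organ on the log2 scale. No paired analysis was possible because the tables pool the 4 samples of a group, and for the same reason no replicate could be left out. Intervals cover counting error only, and differences between animals could not be measured.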
